A study of Homo sapiens with 18 samples.

Results

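The transcription factors that drive epithelial-mesenchymal transition (EMT) were examined here as 9 genes, namely SNAI1, SNAI2, ZEB1, ZEB2, TWIST1, TWIST2, TCF4, PRRX1 and FOXC2. They were chosen by symbol among the 19849 genes of the deposited expression table, and all 9 were found, each on 1 probe set. The table covers 18 Affymetrix U133 Plus 2.0 arrays of 3 human non-small-cell lung cancer cell lines, with 3 arrays for each of 6 groups. HCC827 is driven by mutant EGFR. The parental cells, labelled Parental, are each line without induction of EMT. The mesenchymal cells, labelled EMT, are the same line after culture with 2 ng/ml TGFβ for 3 weeks, with the cytokine withdrawn on the last day before lysis. The labels give 3 weeks for every line, whereas the methods give a range that differs between lines. All groups were grown in RPMI1640 with 10% fetal bovine serum and 4 mM glutamine. Each group stands for a single established line in culture. By the study's text its 3 arrays are of separate biological samples made at 1 time, so the p values cover the spread between samples of 1 occasion.

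These factors silence epithelial genes and turn on mesenchymal ones. SNAI1 and SNAI2 (Snail and Slug) and the larger ZEB1 and ZEB2 are zinc-finger proteins that bind E-boxes in the promoters of epithelial genes such as CDH1 and recruit corepressors. TWIST1, TWIST2 and TCF4 (the E-protein E2-2, not the Wnt effector TCF7L2) are basic helix-loop-helix factors, PRRX1 is a paired-type homeobox factor and FOXC2 a forkhead factor. In carcinoma lines TGFβ acts through SMAD proteins to induce several of them, and microRNAs of the miR-200 family hold ZEB1 and ZEB2 down in epithelial cells.

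The E-box that SNAI and ZEB proteins bind reads CAGGTG, or CACCTG on the other strand. It was looked for in promoter windows of 300 bases, from 250 before to 50 after the start of transcription, taken from RefSeq on GRCh38.p14. The stretches below show it in capitals, with up to 12 bases on each side, before the start of ELF3, the gene named by rule, and of 3 further epithelial genes with more than 1 box, chosen after their values were seen. The AP1M2 stretch is cut at the start of transcription and has fewer bases after its last box.
ELF3: gaatatgcaaatCACCTGgggccaggagcc
AP1M2: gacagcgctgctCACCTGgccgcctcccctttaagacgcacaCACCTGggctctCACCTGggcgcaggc
LAD1: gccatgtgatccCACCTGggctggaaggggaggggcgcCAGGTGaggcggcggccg
MUC1: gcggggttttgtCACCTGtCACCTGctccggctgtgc
The ELF3 stretch lies at chr1:202010455-202010484 on the plus strand. The AP1M2 stretch is at chr19:10587313-10587381, the LAD1 stretch at chr1:201399342-201399397 and the MUC1 stretch at chr1:155192973-155193009, all on the minus strand. Among the 9 factors, 5 had a window in the table (ZEB1, ZEB2, TWIST2, TCF4 and PRRX1), and only ZEB1 held the motif in its first listed window, 57 bases before the start.
ZEB1: ccgaggtgacagCAGGTGagggccgggtgc
This stretch is at chr10:31318348-31318377 on the plus strand. ZEB1 has 7 windows in the table, for different start sites, and 2 of them held the motif.

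The arrays were comparable as a set. Array medians lay between 6.31 and 6.47 on the log2 scale of the deposited values, on which a difference of 1 is a doubling. Over all genes, arrays of a group differed with an SD of 0.163 to 0.282 (log2), and parental and mesenchymal arrays of a line with an SD of 0.719 to 0.896. Parental cells of all lines had high levels of the epithelial keratin KRT18 (13.50 to 14.06), while EPCAM was 7.60 in A549 against 13.60 in HCC827 and 13.67 in NCI-H358. NKX2-1, a lung epithelial factor, was at 3.67 in parental A549 and at 9.18 and 8.62 in the other two. Other lung epithelial markers did not share this split. NAPSA was high in parental HCC827 alone, at 10.87 against 5.91 and 6.02 in the other parental lines. Parental means of SFTPB lay at 5.57 to 5.84 and those of SFTPC at 6.44 to 6.56. The leukocyte marker PTPRC stayed between 2.83 and 3.18 in all groups. An array averages a whole culture, so a factor made by more cells and a factor made at a higher level per cell cannot be told apart.

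No factor was called in all 3 lines, and which factors rose most depended on the line. A gene was called when its fold change was above 5 and its adjusted p under 1e-05. In A549 the factors called were SNAI2 and PRRX1, in HCC827 they were ZEB1, ZEB2 and TCF4, and in NCI-H358 they were ZEB1 and TCF4, all higher in mesenchymal cells. That is 2, 3 and 2 of 9 factors, and the calls of PRRX1 in A549 and TCF4 in NCI-H358 were lost when certain single arrays were left out. Over all genes tested, the shares called higher in A549, HCC827 and NCI-H358 were 1.17%, 1.32% and 0.811%. No factor was called lower, against 0.736%, 1.63% and 1.36% of all genes in the respective lines. At an adjusted p below 0.05 without a fold threshold, 5 factors rose and 2 fell in A549, 7 rose in HCC827 and 6 rose in NCI-H358, with 0 falling in those 2 lines. By that rule 16.6% of all genes rose and 26.8% fell in A549, 20.8% rose and 25.0% fell in HCC827, and 21.5% rose and 19.8% fell in NCI-H358. In A549, HCC827 and NCI-H358 the 9 factors had a median log2 fold change of 0.52, 0.85 and 0.92, where all genes had -0.021, 0.0051 and 0.015. All tests are limma's with Benjamini-Hochberg adjustment over all genes, and the lists, the factors included, were chosen with earlier results of these data known.

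**Figure D1:**
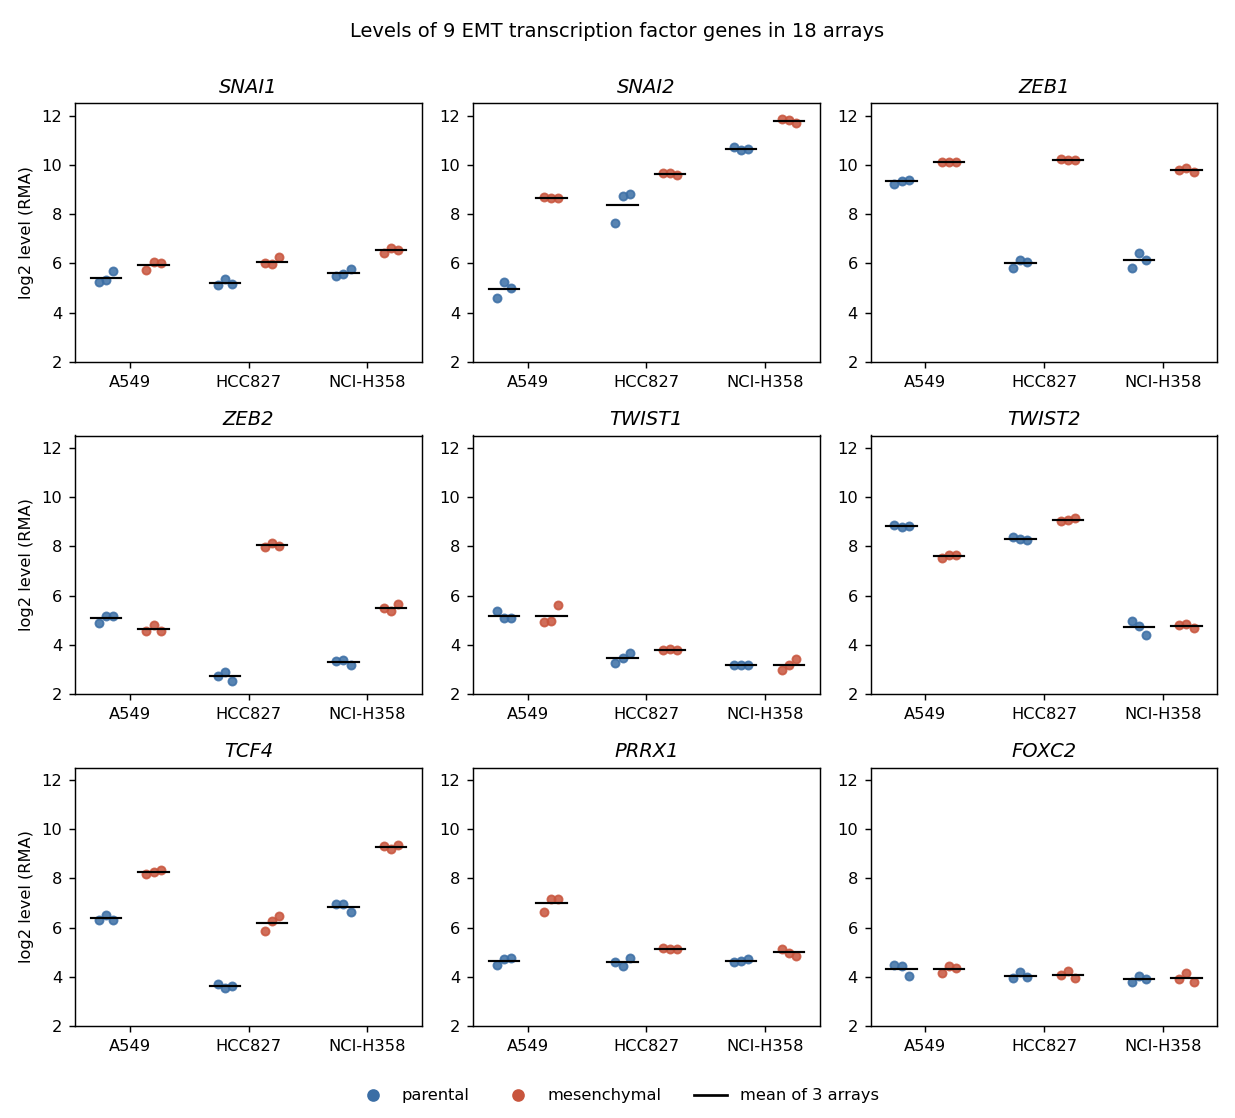
Level of each of the 9 factor genes on every array (log2 scale, RMA), by cell line. Blue points are parental arrays, red points mesenchymal arrays and black lines the means of 3 arrays. The mesenchymal means of ZEB1 lie within 0.41 of each other, whereas its parental means span 3.31.

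The Snail family rose in every line, SNAI1 by less than 2-fold and SNAI2 by amounts that differed between lines. SNAI1 (probe set 219480_at), the founding repressor of CDH1, read 5.25, 5.32 and 5.68 on the parental and 5.74, 6.08 and 6.00 on the mesenchymal arrays of A549. In HCC827 it read 5.12, 5.37 and 5.18 on the parental arrays and 6.00, 5.98 and 6.24 on the mesenchymal ones. In NCI-H358 the values were 5.51, 5.58 and 5.77 and then 6.41, 6.63 and 6.56. The mesenchymal arrays were above all parental arrays in each line, by a narrow gap of 0.059 in A549. A549 gained 0.52 ± 0.12 (log2 fold change ± SE), HCC827 0.85 ± 0.12 and NCI-H358 0.92 ± 0.12, or 1.44-, 1.81- and 1.89-fold (adjusted p = 0.00202, 1.52e-05 and 8.52e-06). The largest difference between lines in this change was 0.39 (95% interval 0.027 to 0.76, adjusted p = 0.0794), between NCI-H358 and A549.

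SNAI2 (213139_at), the paralog of SNAI1, started low in A549 and high in the other lines. Its parental A549 arrays read 4.60, 5.24 and 5.0, and the mesenchymal arrays 8.70, 8.64 and 8.64. In HCC827 the parental arrays read 7.63, 8.72 and 8.81 and the mesenchymal arrays 9.66, 9.69 and 9.60. In NCI-H358 it read 10.74, 10.61 and 10.63 in parental and 11.86, 11.83 and 11.68 in mesenchymal cells. Parental NCI-H358 cells thus already had more SNAI2 than mesenchymal A549 or HCC827 cells, with no overlap of arrays. On the log2 scale A549 gained 3.71 ± 0.22, HCC827 1.26 ± 0.22 and NCI-H358 1.13 ± 0.22, which are 13.1-, 2.40- and 2.19-fold (adjusted p = 3.89e-10, 0.000123 and 0.000415). Parental replicate 1 of HCC827 was the low array there, and without it the change in HCC827 was 0.88. Relative to the rise in A549, that in HCC827 differed by -2.45 and that in NCI-H358 by -2.58 (adjusted p = 5.70e-06 and 3.46e-06). Over the 6 groups the means of SNAI2 spanned 6.84, the widest range among the 9 factors, and mesenchymal A549 and parental HCC827 were the only neighbours in the order whose arrays overlapped.

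The ZEB family showed the opposite arrangement of lines. ZEB1 (212764_at) was already high in parental A549, at 9.23, 9.36 and 9.40, and reached 10.11, 10.13 and 10.12 in mesenchymal A549. In HCC827 it went from 5.83, 6.15 and 6.07 to 10.23, 10.19 and 10.19. In NCI-H358 it went from 5.84, 6.43 and 6.14 to 9.80, 9.89 and 9.70. The 2 low parental lines overlapped each other and lay far below parental A549, and the mesenchymal groups of all lines came close together. A549 gained 0.79 ± 0.11, HCC827 4.18 ± 0.11 and NCI-H358 3.66 ± 0.11 on the log2 scale, or 1.72-, 18.2- and 12.6-fold (adjusted p = 2.52e-05, 1.45e-14 and 1.20e-13). Parental means differed from A549 by -3.31 in HCC827 and -3.20 in NCI-H358 (adjusted p = 1.12e-13 and 1.46e-13). In the mesenchymal state the means differed from A549 by 0.084 in HCC827 (95% interval -0.16 to 0.33, adjusted p = 0.567) and by -0.32 in NCI-H358 (adjusted p = 0.0232). The change itself was larger than in A549 by 3.40 in HCC827 and by 2.87 in NCI-H358 (adjusted p = 4.00e-11 and 3.00e-10). ZEB1-AS1, the antisense gene at the ZEB1 promoter, had log2 fold changes of 0.088, -0.18 and -0.35 in A549, HCC827 and NCI-H358 (adjusted p = 0.494, 0.124 and 0.00494). It was looked up after the values were seen.

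ZEB2 (203603_s_at) moved in different directions in different lines. In HCC827 it read 2.74, 2.89 and 2.53 in parental and 7.97, 8.14 and 8.03 in mesenchymal cells, and in NCI-H358 it read 3.35, 3.40 and 3.18 and then 5.49, 5.37 and 5.67. In A549 it read 4.89, 5.19 and 5.18 in parental cells and fell to 4.55, 4.80 and 4.55. The arrays of the states did not overlap in any line, although the gap in A549 was only 0.089. HCC827 gained 5.32 ± 0.11 (40.0-fold, adjusted p = 7.16e-16), the largest of any factor in any line. The parental mean of ZEB2 was 2.72 in HCC827 and 3.31 in NCI-H358, at percentiles 2.36 and 7.87 of all genes on those arrays. The size of the folds in these lines thus rests on readings near the floor. NCI-H358 gained 2.20 ± 0.11 (4.58-fold, adjusted p = 5.60e-11), just under the fold threshold, and the change in A549 was -0.46 ± 0.11 (adjusted p = 0.00325). All pairs of lines differed in this change, by 5.78 between HCC827 and A549, 2.65 between NCI-H358 and A549 and -3.13 between NCI-H358 and HCC827 (adjusted p = 9.13e-14, 6.93e-10 and 1.72e-10). The probe set's suffix marks it as one that may match more than 1 transcript, and mesenchymal A549 had the lowest ZEB2 mean of the mesenchymal groups, 4.63 against 5.51 and 8.05.

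Among the helix-loop-helix factors, TCF4 rose in all lines and neither TWIST gene did. TCF4 (212382_at) binds E-boxes as a dimer, alone or with a partner such as TWIST1. It went from 6.32, 6.49 and 6.32 to 8.17, 8.28 and 8.33 in A549. In HCC827 it went from 3.73, 3.54 and 3.65 to 5.85, 6.27 and 6.49, and in NCI-H358 from 6.98, 6.96 and 6.62 to 9.30, 9.18 and 9.34. The states were separate in every line, while mesenchymal HCC827 only reached the level of parental A549, with overlapping arrays. The parental mean of TCF4 in HCC827 was 3.64, at percentile 12.4 of all genes, so the fold in HCC827 rests on a low reading. A549 gained 1.88 ± 0.13, HCC827 2.56 ± 0.13 and NCI-H358 2.42 ± 0.13, or 3.68-, 5.92- and 5.35-fold (adjusted p = 3.29e-09, 4.06e-11 and 1.08e-10). Without parental replicate 3 of NCI-H358, its log2 change was 2.30 there and it was no longer called. TCF4 was the only factor whose rise exceeded 3-fold in every line, its lowest and highest change being 0.68 apart. That difference, between HCC827 and A549, passed the test (adjusted p = 0.00643), as did the one of 0.54 between NCI-H358 and A549 (adjusted p = 0.0270), which kept an adjusted p below 0.05 in 13 of 18 fits that each left out 1 array.

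TWIST1 (213943_at) did not pass the test in any line. In A549 it read 5.37, 5.09 and 5.10 in parental and 4.91, 4.99 and 5.60 in mesenchymal cells. In HCC827 it read 3.28, 3.46 and 3.69 and then 3.78, 3.84 and 3.81, without overlap but with an adjusted p of 0.0886 for a log2 fold change of 0.33. In NCI-H358 it read 3.16, 3.19 and 3.17 and then 2.99, 3.18 and 3.42. The 95% interval of the change was -0.34 to 0.30 in A549 and -0.30 to 0.35 in NCI-H358. Its level went with the line, parental HCC827 differing from parental A549 by -1.71 and parental NCI-H358 by -2.01 (adjusted p = 3.14e-08 and 3.33e-09).

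TWIST2 (229404_at), the close paralog of TWIST1, changed in opposite directions in A549 and HCC827. It fell from 8.88, 8.78 and 8.84 to 7.54, 7.64 and 7.63 in A549. It rose from 8.38, 8.31 and 8.24 to 9.02, 9.08 and 9.13 in HCC827. In NCI-H358 it stayed low, at 4.97, 4.75 and 4.40 in parental and 4.82, 4.83 and 4.67 in mesenchymal cells, with overlapping arrays. The change was -1.23 ± 0.10 in A549 and 0.77 ± 0.10 in HCC827 (adjusted p = 3.80e-08 and 8.04e-06). For NCI-H358 it was 0.063, with a 95% interval of -0.16 to 0.28 (adjusted p = 0.698). These changes were 2.00 apart in HCC827 and A549 (adjusted p = 8.74e-09). Parental NCI-H358 differed from parental A549 by -4.12 (adjusted p = 1.62e-15), more than the states of any line differed.

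PRRX1 (226695_at) was called in A549 only, where it went from 4.48, 4.73 and 4.77 to 6.63, 7.15 and 7.17. In HCC827 it went from 4.59, 4.46 and 4.77 to 5.17, 5.15 and 5.13, and in NCI-H358 from 4.59, 4.65 and 4.74 to 5.15, 4.98 and 4.84. The parental means lay within 0.055 of each other, so by these readings the lines parted only in the mesenchymal state. Those parental means were low, at percentiles 24.5 to 25.4 of all genes on the arrays. Whether they reflect equal expression or background signal was not tested. A549 gained 2.33 ± 0.13 (5.01-fold), HCC827 0.55 ± 0.13 and NCI-H358 0.33 ± 0.13 (adjusted p = 1.47e-10, 0.00184 and 0.0464), and the last of these was lost in several alternative fits. The fold in A549 was just inside the threshold of 5, and its call was lost in a fit of A549 alone and without parental replicate 1, mesenchymal replicate 2 or mesenchymal replicate 3, where the log2 change was 2.24, 2.24 and 2.23. Relative to A549, the rise differed by -1.78 in HCC827 and by -1.99 in NCI-H358 (adjusted p = 4.50e-07 and 1.21e-07).

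FOXC2 (214520_at) stayed low and level. Its 6 group means lay between 3.93 and 4.33, and all neighbouring groups in the order of means overlapped. Changes of 0.017, 0.053 and 0.030 were estimated for A549, HCC827 and NCI-H358 (adjusted p = 0.933, 0.783 and 0.894). The 95% intervals reached at most 0.32.

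**Figure D2:**
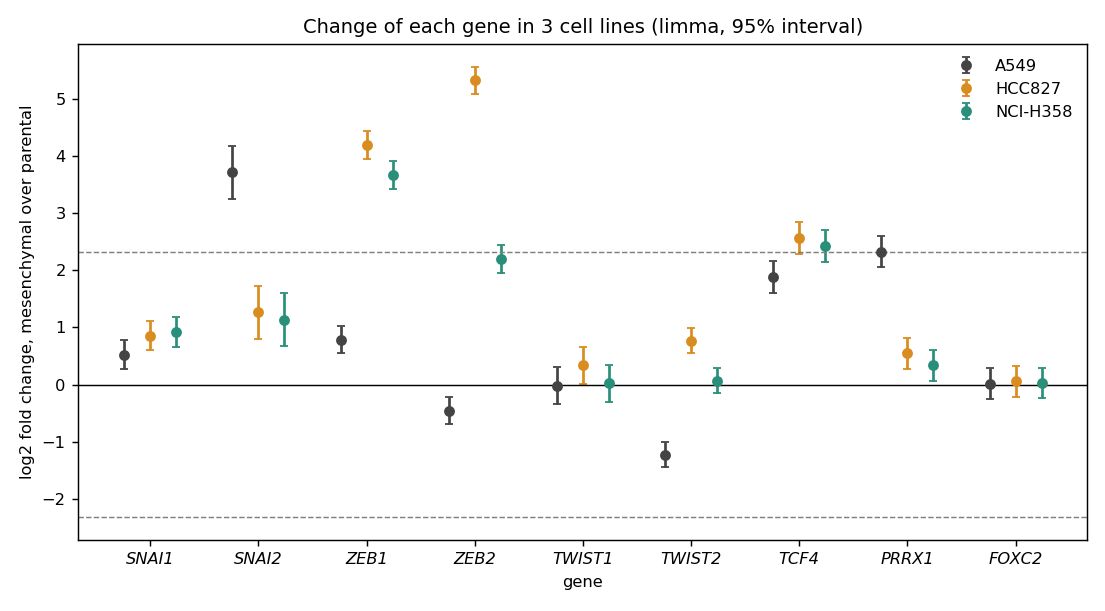
Log2 fold change of mesenchymal over parental cells for each factor in A549 (grey), HCC827 (orange) and NCI-H358 (green). Points are limma estimates from 3 arrays per group, bars are 95% intervals and dashed lines mark a 5-fold change. SNAI2 and PRRX1 stand highest in A549, and ZEB1 and ZEB2 in HCC827.

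The complete separation of arrays was frequent. The mesenchymal arrays lay entirely above the parental arrays for 8 factors in HCC827, 6 in NCI-H358 and 5 in A549, and entirely below for 2 factors (ZEB2 and TWIST2) in A549 and 0 in the others. Over all genes of A549, HCC827 and NCI-H358, the share lying above was 21.0%, 23.8% and 27.2%, and the share lying below 31.4%, 27.4% and 24.4%. With 3 arrays against 3, the exact permutation test cannot go below a two-sided p of 0.1, which each of these separations reached.

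The differences between lines were tested directly. The change upon EMT differed between HCC827 and A549 for 6 of 9 factors, between NCI-H358 and A549 for 6, and between NCI-H358 and HCC827 for 3 (ZEB1, ZEB2 and TWIST2). Over all genes these changes differed for 42.2%, 42.8% and 37.9%, so the count of factors for the last pair was near the background. The remaining differences were -0.52 for ZEB1 (adjusted p = 0.0169) and -0.70 for TWIST2 (adjusted p = 0.000952) between NCI-H358 and HCC827, and 1.29 for TWIST2 between NCI-H358 and A549 (adjusted p = 1.78e-06). The pairs share the arrays of a line, so the counts are not independent of each other.

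Levels were also compared between lines within a state. In parental cells 6, 7 and 5 factors differed in level between HCC827 and A549, NCI-H358 and A549, and NCI-H358 and HCC827, against 57.1%, 57.9% and 52.6% of all genes. In mesenchymal cells 6, 9 and 7 factors differed, against 56.6%, 58.8% and 52.6%. Counts of 5 or 6 of 9 are near these shares of all genes. PRRX1 was the factor whose lines parted most, from low parental readings, with a spread of means of 0.055 before and 1.99 after treatment. ZEB1 went the other way, from 3.31 to 0.41, and SNAI2 from 5.71 to 3.13. For TCF4 (3.22 and 3.07) and TWIST2 (4.12 and 4.31) the spread between lines was nearly the same in both states.

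Other EMT transcription factors moved in both directions. Of 31 genes in that list, 10 rose and 8 fell in A549, 14 rose and 7 fell in HCC827, and 10 rose and 5 fell in NCI-H358, with medians of -0.051, 0.24 and -0.018. The respective shares of all genes were 16.6%, 20.8% and 21.5% for rises and 26.8%, 25.0% and 19.8% for falls. The falls in this list were thus near the background and the rises above it, without a test of either. None of the 31 genes was called in all lines. The genes with the largest even changes were RUNX2, the osteoblast factor, which rose by 2.43 in HCC827, 1.49 in A549 and 0.66 in NCI-H358, HMGA2, a chromatin architecture protein (2.63, 0.84 and 0.88 in that order), and ETS2 (0.37, 0.46 and 1.19). The partners and antagonists of helix-loop-helix factors, named after their values were seen, differed between lines. ID1, which blocks DNA binding by E-proteins such as TCF4, changed by -4.09 in HCC827 (adjusted p = 2.00e-15), -0.59 in NCI-H358 and 0.57 in A549. ID3, of the same family, fell by 2.98 in HCC827 (adjusted p = 3.89e-14) and rose by 0.77 in A549 and 1.32 in NCI-H358. TCF12, another E-protein, rose by 1.18 in NCI-H358 (adjusted p = 1.04e-09), fell by 0.39 in HCC827 (adjusted p = 0.000400) and changed by -0.18 in A549 (adjusted p = 0.0673). TCF3, a further E-protein, changed by 0.046, -0.33 and 0.12 in A549, HCC827 and NCI-H358.

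Epithelial genes listed as targets of such factors fell broadly in HCC827 and NCI-H358 and in fewer cases in A549. Whether the factors brought about these falls was not tested. Of 38 epithelial genes, 36 fell and 1 rose in HCC827, 37 fell and 0 rose in NCI-H358, and 14 fell and 4 rose in A549. Their medians were -3.02, -2.56 and -0.063. Of all genes, 25.0% fell and 20.8% rose in HCC827, 19.8% and 21.5% in NCI-H358, and 26.8% and 16.6% in A549. The strict thresholds called 26, 23 and 4 of the 38 lower in HCC827, NCI-H358 and A549, against 1.63%, 1.36% and 0.736% of all genes. The 4 called in all lines were CDH1, EPCAM, KRT19 and ELF3. CDH1, which encodes E-cadherin, changed by -2.95 in HCC827, -3.94 in NCI-H358 and -5.81 in A549 (adjusted p = 1.92e-11, 6.51e-13 and 3.39e-15). EPCAM, an epithelial adhesion molecule, changed by -2.69, -2.92 and -3.03 in the 3 lines in that order. KRT19, a keratin, changed by -3.57, -4.87 and -3.19, and ELF3, an epithelial ETS factor, by -5.37, -3.94 and -3.06.

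Parental A549 already had low levels of most of this list. In parental cells 36 of the 38 genes were higher in HCC827 than in A549 and 0 lower, with a median difference of 3.36, against 27.2% higher and 29.8% lower over all genes. Between NCI-H358 and A549, 34 were higher and 2 lower, with a median of 2.44, against 28.5% and 29.4%. The genes chosen here after their values were seen show the range. ESRP1, an epithelial splicing regulator, averaged 3.53 in parental and 3.57 in mesenchymal A549, but fell from 12.19 to 7.24 in HCC827 and from 12.06 to 4.86 in NCI-H358. GRHL2, an epithelial factor that represses ZEB1, was 3.83 and 3.78 in A549, and fell from 8.62 to 4.73 in HCC827 and from 7.88 to 3.92 in NCI-H358. CDH1, in contrast, still averaged 9.32 in parental A549 and fell to 3.51. In mesenchymal cells the same comparison was narrower, with 21 genes higher and 8 lower in HCC827 than in A549 (median 0.51) and 18 higher and 6 lower in NCI-H358 (median 0.19). The line with high ZEB1 before treatment was thus the one with the low epithelial list, among 3 lines, which is too few for a test across lines.

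Most of the mesenchymal genes rose in each line. Of 28, 21 rose and 3 fell in A549, 21 rose and 2 fell in HCC827, and 23 rose and 1 fell in NCI-H358, with medians of 1.79, 2.77 and 2.01. S100A4 fell in every line. It changed by -4.74 in A549, where it was called lower, by -1.54 in NCI-H358 and by -1.08 in HCC827. AXL rose by 0.85 in NCI-H358, against changes of -0.71 for HCC827 and -1.57 for A549. FGFR1 changed by -0.44 in A549 and rose in the other lines. SPARC, COL1A1, LOX, TAGLN and WNT5A were called higher in all 3 lines. SPARC, a matrix glycoprotein, rose by 2.88, 5.20 and 3.97 and the collagen gene COL1A1 by 3.42, 4.41 and 3.65 in A549, HCC827 and NCI-H358. CDH2 (N-cadherin) rose by 1.94, 3.26 and 2.04, FN1 (fibronectin) by 3.11, 3.98 and 1.99, and VIM (vimentin) by 0.79, 2.03 and 2.31, vimentin on a probe set with group means of 3.55 to 6.37. Of 4 fibroblast markers, LUM rose with these genes, from 3.14 to 5.29 in A549, 5.03 to 8.96 in HCC827 and 8.22 to 10.37 in NCI-H358, while PDGFRA was at most 3.90 in any group. COL1A2 went from 3.22 to 3.42 in A549, 3.14 to 5.25 in HCC827 and 3.20 to 3.91 in NCI-H358. DCN went from 4.82 to 5.27, 4.71 to 5.26 and 4.92 to 5.07 in that order. Their part in the result was not tested.

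**Figure D3:**
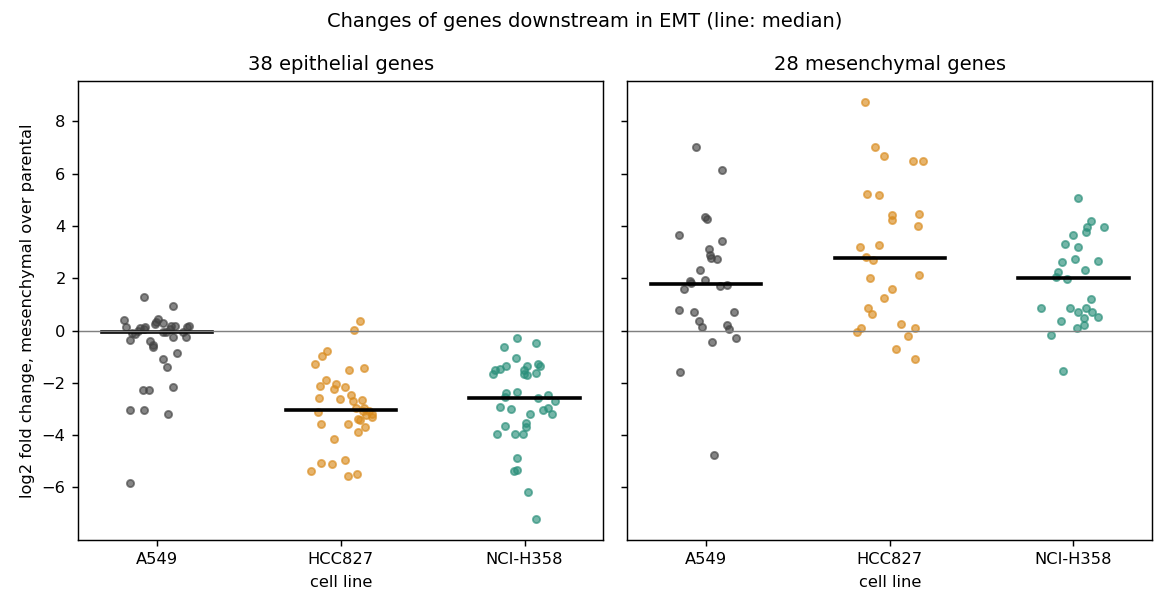
Log2 fold change of mesenchymal over parental cells for each of 38 epithelial genes and 28 mesenchymal genes (points), by cell line, with the median of the list as a black line. The epithelial medians are -3.02 for HCC827, -2.56 for NCI-H358 and -0.063 for A549, and the mesenchymal medians are above 0 in all lines.

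Among cofactors and stability regulators of the factors, AJUBA in A549 was the only gene called in any line. AJUBA, named after its values were seen, changed by -3.22 there, -1.41 in HCC827 and -0.16 in NCI-H358 (adjusted p = 1.09e-14, 4.18e-10 and 0.166). Of 22 corepressors and chromatin partners, 2 rose and 14 fell in A549, 6 rose and 6 fell in HCC827 and 3 rose and 7 fell in NCI-H358. Across A549, HCC827 and NCI-H358 the deacetylase HDAC1 changed by -0.39, -0.64 and -0.21 and the methyltransferase EZH2 by -0.54, -0.20 and -0.50, while the Polycomb protein BMI1 rose by 0.34, 0.90 and 0.91. Of 21 genes that act on the stability or modification of these proteins, 4 rose and 3 fell in A549, 8 rose and 4 fell in HCC827, and 7 rose and 7 fell in NCI-H358. GSK3B, the kinase that marks SNAI1 for degradation, rose by 0.37, 0.85 and 0.69, the chaperone gene DNAJB4 rose by 1.57, 1.02 and 0.57, and the kinase gene PAK1 changed by -0.58, -0.45 and -1.63. Arrays measure RNA, and the abundance of the proteins was not analysed here. Of 26 upstream genes, 11 rose and 7 fell in A549, 14 rose and 4 fell in HCC827, and 16 rose and 5 fell in NCI-H358. Over all genes, 16.6%, 20.8% and 21.5% rose and 26.8%, 25.0% and 19.8% fell, with the lines in that order. Falls of corepressors and partners in A549, 14 of 22, were well above that share. Rises of upstream genes were above it in every line. Neither excess was tested. Some changes of upstream genes were large, such as 3.63 for JAG1 in HCC827 and -3.22 for TGFBR3 in A549. Both were named after their values were seen. TGFBR1, a receptor of TGFβ, rose by 2.16, 2.07 and 0.59 in the lines in that order, and HEY1, a Notch target, by 2.52, 2.06 and 0.30.

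The E-box printed above was more frequent in the windows of the epithelial list than elsewhere. That list was drawn up as target genes of such factors, with earlier results of these data known. The comparison is therefore a description and cannot test whether the motif marks such genes. Of 27305 genes with a window, taking the first listed for each, 20.6% held the motif and 3.47% held at least 2. Of the 38 epithelial genes 19 had a window, and of these 11 (57.9%) held it and 7 (36.8%) held at least 2. Among mesenchymal genes 3 of 17 (17.6%) held it. Counting any window of a gene gave 78.9% of the epithelial genes against 24.1% of all. Windows of CDH1, EPCAM and KRT19 were not in the table.

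The number of boxes also went with the share of genes called lower in HCC827 and NCI-H358, over the 15018 genes of the arrays that had a window. In HCC827 1.21% of 12072 genes without a box were called lower, 2.21% of 2492 genes with 1 box, and 5.73% of 454 genes with at least 2. In NCI-H358 these shares were 1.03%, 1.93% and 4.63%. In A549 they were 0.721%, 0.803% and 0.881%. With the epithelial list left out, at least 2 boxes went with 4.92% in HCC827 and 4.03% in NCI-H358. Genes called higher went the other way, with 1.40%, 0.843% and 0% in HCC827. The E-box CAGCTG, a palindrome, showed no such rise in HCC827, with 1.56% of genes without it, 1.39% with 1 and 0.337% with at least 2 (1 of 297 genes) called lower. In NCI-H358 its shares were 1.27%, 1.35% and 1.35%. Mean GC content was 61.9%, 62.6% and 64.2% in windows with 0, 1 and at least 2 boxes of the first kind, and its part in these shares was not tested. The shares are descriptions of the windows, with no test, and the median log2 fold change of genes with at least 2 boxes was -0.055 in HCC827 and -0.057 in NCI-H358. The medians without a box were 0.014 and 0.028.

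**Figure D4:**
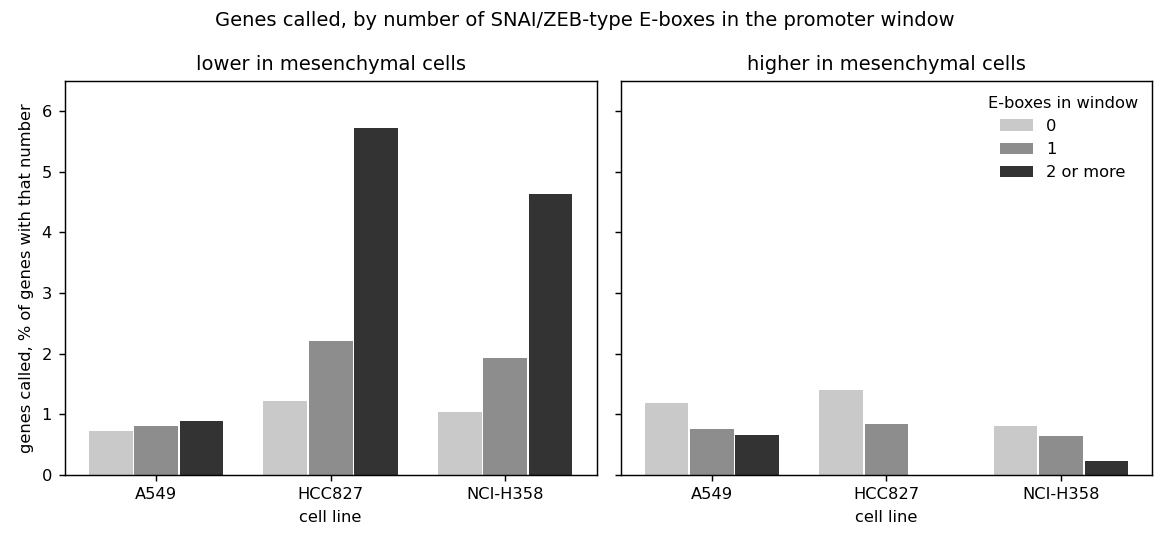
Share of genes called lower (left) or higher (right) in mesenchymal cells, in % of the genes with 0, 1 or at least 2 boxes in the promoter window, by cell line. In HCC827 the share called lower goes from 1.21% to 5.73%, whereas in A549 it goes from 0.721% to 0.881%.

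The genes whose boxes are printed above changed as follows. AP1M2, a subunit of the epithelial AP-1B adaptor with 3 boxes, changed by -2.27, -3.30 and -2.56 in A549, HCC827 and NCI-H358. MUC1, an apical mucin, had changes of -5.47 in HCC827 and -1.46 in NCI-H358, from parental means of 11.77 and 9.20, and of 0.12 in A549, where its parental mean was 6.88 (adjusted p = 0.603). LAD1, which encodes ladinin, had changes of -1.44 in HCC827 and -1.64 in NCI-H358, from 7.95 and 7.90, and of 0.13 in A549, from 6.03 (adjusted p = 0.258). Boxes did not go with a fall in each case. DSP, a desmosomal gene with 2 boxes, rose by 0.92 in A549 and changed by 0.012 in HCC827 (adjusted p = 0.921), although it fell by 0.49 in NCI-H358 (adjusted p = 3.45e-05). Within the epithelial list the median log2 fold change in HCC827 was -3.09 for the 11 genes with a box and -2.60 for the 8 without, and in NCI-H358 it was -2.39 and -2.03. In A549 the order was the other way, with 0.094 for those with a box and -0.13 for those without.

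For the factors called in a line, the genes with the most similar pattern over the 18 arrays were listed by Pearson's r, as a description, since the arrays fall into 6 groups that share line and state. Genes listed for ZEB1 were KATNAL1 (r = 0.986) and PALLD (0.982), the latter a protein of the actin cytoskeleton. SNAI2 was most like MT1F (0.990), a metallothionein, then DUSP10 and FABP6 (both 0.963). ZEB2 was most like ZNF365 (0.975), PARP11 (0.966) and VIPAS39 (0.963), TCF4 most like CHSY1 (0.987), WDR37 (0.975) and LTBP4 (0.961), and PRRX1 most like PRR9, NOX4 and CCL7 (all 0.976). Among the factors themselves the highest r was 0.81, between ZEB1 and ZEB2, while ZEB1 and SNAI2 had an r of -0.065 and SNAI2 and TWIST1 one of -0.76.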

How the data were processed

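RNA of 18 samples was measured on Affymetrix U133 Plus 2.0 arrays. The deposited values are on the log2 scale after RMA by the authors, and list 19849 genes, each by 1 probe set. How that probe set was chosen and the software version used are not given in the sources used here. RMA gives no detection call. Of the gene IDs, 19326 matched RefSeq, and 26 symbols written as dates were named by ID. The arrays have no sequencing depth, and 3 per group limit the precision.

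Replicates were numbered in record order and do not pair samples. The 6 groups were compared with limma 3.58.1 in R 4.3.3, in 1 fit of all 18 arrays without covariates, with Benjamini-Hochberg adjustment over all genes. The fit was tested on simulated data. Genes named were the 9 factors, CDH1, CDH2, VIM and FN1, genes of each list called in all lines or, failing that, the 3 with the largest mean change among those passing in all lines, and the 3 genes most correlated with each called factor. Others were chosen after values were seen, as the text says. A few genes that this rule selects are not reported here. The members and lists were chosen with earlier results of these data known. E-boxes were counted in RefSeq windows (GRCh38.p14), with Python 3.11.15. Alternatives were a fit of only the groups compared, an intensity trend with a robust prior, array weights, a filter on dim probe sets, centred arrays, other thresholds, the methods' t-test and each array left out. Protein sequences were not used here.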

Additional observations from a re-analysis of the deposited data

Results flagged for a closer look

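The change upon EMT of 6 factors differed between lines in limma contrasts (adjusted p below 0.05), each over 3 arrays per group. Between HCC827 and A549 the log2 fold change differed by 5.78 for ZEB2, 3.40 for ZEB1, 2.00 for TWIST2 and 0.68 for TCF4, all larger in HCC827, and by -2.45 for SNAI2 and -1.78 for PRRX1, both larger in A549. Between NCI-H358 and A549 it differed by 2.87 for ZEB1, 2.65 for ZEB2, 1.29 for TWIST2 and 0.54 for TCF4, and by -2.58 for SNAI2 and -1.99 for PRRX1. Between NCI-H358 and HCC827 it differed by -3.13 for ZEB2, -0.70 for TWIST2 and -0.52 for ZEB1. When single arrays were dropped, the difference of TCF4 between NCI-H358 and A549 was below 0.05 in 13 of 18 fits, and the others were below 0.05 in all 18.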

How the results depend on the processing

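Calls near the fold threshold depended on the fit. In A549, 1 factor was called in the fit of only the groups compared, 4 at a fold above 2 and 1 at a fold above 10, against 2 as reported. The 4 at a fold above 2 count both directions and include TWIST2, which fell (log2 fold change -1.23). With each array left out 1 to 2 were called, PRRX1 being lost without parental replicate 1, mesenchymal replicate 2 or mesenchymal replicate 3. In NCI-H358, 1 was called at a fold above 10 and 1 to 2 with each array left out, TCF4 being lost without parental replicate 3. The rise of PRRX1 in NCI-H358 had an adjusted p of 0.052 with an intensity trend and up to 0.188 without single arrays. TWIST1 in HCC827 passed in the fit of only the groups compared (0.0419) and with centred arrays (0.0389). Changes near 0 turned their sign. TWIST1 in A549 was 0.082 with array weights, 0.048 with centred arrays and -0.24 to 0.11 without single arrays, and in NCI-H358 it was -0.011 with array weights and -0.088 to 0.12 without single arrays. FOXC2 was -0.033 with array weights in A549, and without single arrays -0.12 to 0.096 in A549, -0.013 to 0.13 in HCC827 and -0.081 to 0.12 in NCI-H358. TWIST2 in NCI-H358 was -0.089 to 0.20 without single arrays. Of the recomputed changes of single factors, 585 kept direction and side of the threshold, 11 lost significance, 4 gained it and 15 turned sign. The filter on dim probe sets left 12076 genes and removed TWIST1 and FOXC2. For E-boxes, counting any window of a gene and leaving out the epithelial list, were tried after seeing the data. No paired analysis was possible because the labels give no replicate numbers.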
